A study of Rattus norvegicus with 24 samples.

Results

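Serum miRNAs of rats fed fish oil were compared with those of rats on a normal diet, with both groups breathing filtered air. The comparison was chosen by the diet and exposure given in the labels and holds 12 of the 23 libraries in the tables, 6 per group and 1 library per rat. All rats were male Wistar Kyoto. The normal diet was the facility's rodent chow, and the other diet was a Teklad custom feed with 6% fish oil by weight. Both were given from 4 weeks of age for 8 weeks, after which the rats breathed filtered air for 4 h on each of 2 days. The remaining 11 libraries come from rats on the same diets that breathed 0.8 ppm ozone instead, 6 on the normal diet and 5 on fish oil (replicate 2 of the latter group was not analysed here). Blood was drawn from the abdominal aorta, and small RNA from 100 µl of serum was sequenced.

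A feed with another added oil was not analysed here, so the part of fish oil as such, of added oil and of other differences between the feeds cannot be told apart. Rats were housed 2 to a cage, and the labels tie no library to a cage. Animal numbers run in separate blocks by group, so a batch that followed them cannot be told apart from the diet. Libraries are called normal air 1 to 6 and fish oil air 1 to 6; these numbers are names only.

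A miRNA is a short RNA cut from a hairpin precursor, and the bases near its 5′ end, the seed, pair with target messenger RNAs. miRNAs in serum travel in vesicles, in lipoproteins and bound to protein, and they are released by blood cells and by tissues. Some are made largely in 1 tissue, such as miR-122 in hepatocytes and miR-217 in the exocrine pancreas, and serum levels of these are used as tissue markers. In serum, fewer releasing cells and less RNA released per cell cannot be told apart.

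The mature sequences on which the results turn are shown 5′ to 3′ with the seed, bases 2 to 8, in capitals. They come from RefSeq (rat assembly GRCr8), which matched 125 of the 136 miRNAs tested; the counts themselves were made on build rn5. The first pair are neighbours on chromosome 8 that both fell, the next pair are neighbours on chromosome 1, and the pair after that are neighbours on chromosome 14 with few reads on the normal diet. They are followed by a liver and a brain miRNA, by the 4 members of the miR-181 family, which have 1 seed in common and went both ways, and by a pair of mesenchymal miRNAs.
miR-191a-5p: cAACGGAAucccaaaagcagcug
miR-425-5p: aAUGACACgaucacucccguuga
miR-192-5p: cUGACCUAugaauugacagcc
miR-194-5p: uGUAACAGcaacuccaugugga
miR-217-5p: uACUGCAUcaggaacugacugg
miR-216a-5p: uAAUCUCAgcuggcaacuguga
miR-122-5p: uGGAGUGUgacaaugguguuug
miR-128-3p: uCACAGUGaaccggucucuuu
miR-181a-5p: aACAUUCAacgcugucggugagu
miR-181b-5p: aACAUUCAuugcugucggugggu
miR-181c-5p: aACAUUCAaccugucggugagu
miR-181d-5p: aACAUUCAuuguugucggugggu
miR-143-3p: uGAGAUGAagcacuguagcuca
miR-199a-3p: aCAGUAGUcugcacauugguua
Among the sequences shown, the miR-181 members are the only ones with a seed in common.

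Normal diet libraries held 45372 to 88397 miRNA counts and fish oil libraries 23276 to 53694. Levels below are in CPM, counts relative to the miRNA total of the library, after TMM scaling (trimmed mean of M values), which sets the bulk of miRNAs to no difference between libraries. A difference is the log2 fold change of fish oil minus normal diet, with its standard error (SE). The floor of detection was set at 3 counts, which corresponds to 33.9 to 129 CPM before TMM scaling. It covers counting error only, because PCR copies were not separated by molecular identifiers. The edgeR quasi-likelihood test was run on 136 miRNAs, with p-values adjusted by Benjamini-Hochberg over all of them and a threshold of 0.05. The labels give 1 rat per library and name no separate cohorts, so p-values measure the spread between these rats. They take each rat as independent, although rats shared cages and cages could not be entered.

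In filtered air 8 miRNAs changed with the diet, 5.88% of those tested. Of these 1 was higher on fish oil (0.735%) and 7 were lower (5.15%), and 39 had an unadjusted p below the threshold, 22 higher and 17 lower. The miRNAs that fell include the most abundant serum miRNA of the normal diet, miR-191a-5p, its genomic neighbour miR-425-5p, the liver miRNAs miR-122-5p and miR-192-5p, miR-128-3p, miR-328a-3p and miR-181c-5p. The one that rose, miR-217-5p, is a pancreatic miRNA read only a few times per library on the normal diet, and it passed the low-count filter through fish oil libraries. That filter asks for 220 CPM or more, before TMM scaling, in 5 of the 23 libraries. Of the 136 miRNAs, 18 reached it in fewer than 5 normal diet libraries, and 15 of these were positive in air; 11 reached it in fewer than 5 fish oil libraries, and 9 of these were negative. Over all 136 miRNAs the median difference was +0.08, with 76 positive and 60 negative. Of the 136, a difference above 1 in size was fitted for 7 miRNAs in the positive and 6 in the negative direction. On the positive side, miR-217-5p, miR-205, miR-10b-5p, miR-144-5p, miR-342-3p and miR-126a-3p reached the filter in fewer than 5 normal diet libraries. On the negative side, miR-326-3p and miR-194-5p reached it in fewer than 5 fish oil libraries. These 2 counts are therefore a description only. The CPM of the 6 fish oil and 6 normal diet libraries did not overlap for 4 miRNAs (2.94%), miR-191a-5p, miR-192-5p, miR-128-3p and miR-425-5p, all lower on fish oil.

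**Figure D1:**
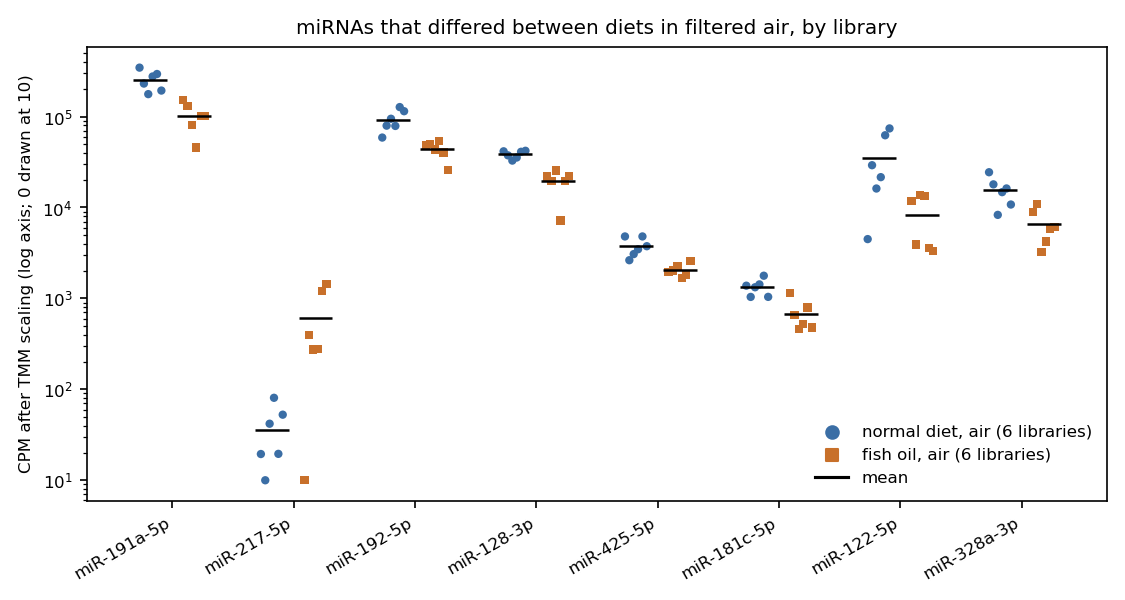
Level of the 8 miRNAs past the threshold in each of the 12 air libraries, in CPM after TMM scaling on a log axis, with a bar at the group mean; a library at 0 is drawn at 10. Fish oil libraries lie below all normal diet libraries for miR-191a-5p, miR-192-5p, miR-128-3p and miR-425-5p, and the groups overlap for the other 4.

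What the counts are scaled to shifts every difference. The deposited RPM table implies a read total for each library, far above its miRNA counts, and when libraries were scaled to that total the median of the 136 moved from +0.08 to −0.78, with 10 positive and 126 negative. On that scale 1 miRNA was called higher and 37 lower in edgeR. All 7 miRNAs that fell were still called lower, and miR-217-5p was still called higher, at +3.36 (edgeR quasi-likelihood, Benjamini-Hochberg adjusted p = 0.0167, higher than the normal diet mean in 5 of 6). The same low-count filter applied, which miR-217-5p passed through fish oil libraries, so its call on this scale is a description only. Of the 22 that were higher at an unadjusted p below the threshold, 10 were still positive. A higher value below is therefore higher relative to the other miRNAs of the same serum.

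**Figure D2:**
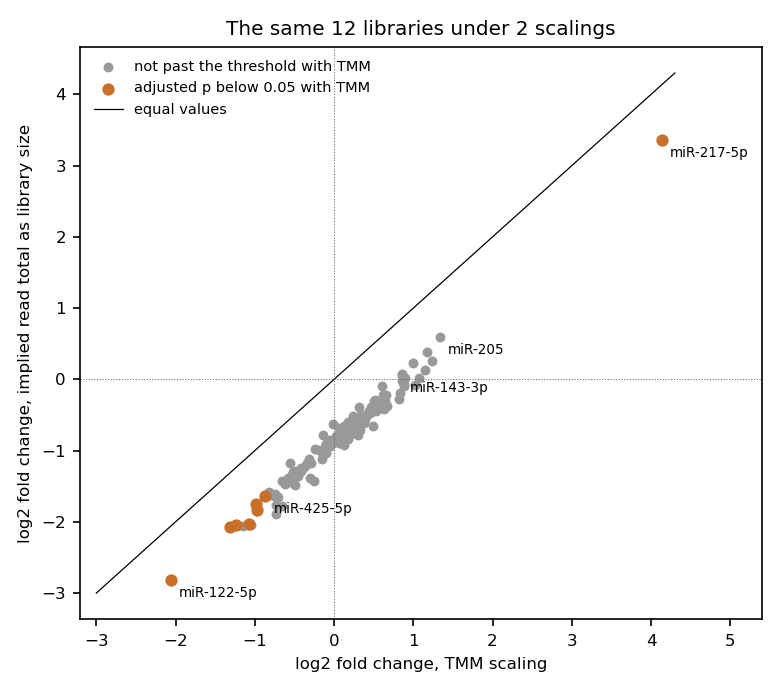
Log2 fold change of each of the 136 miRNAs with TMM scaling (x axis) and scaled to the implied read total (y axis). The points lie below the line of equal values, and miR-217-5p at +4.13 and +3.36 stands far from the others under both scalings.

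The miRNA total itself differed by diet. It averaged 65638 ± 15675 counts on the normal diet and 37262 ± 11332 on fish oil (SD, n = 6 each), and as a share of the implied reads it ran from 0.848 to 2.34% on the normal diet and from 0.374 to 0.830% on fish oil, with no overlap. For the share, fish oil over normal diet gave a ratio of 0.496 (exact permutation test, two-sided, p = 0.00216, the smallest that 6 against 6 libraries can give; adjusted over 5 library measures, p = 0.0108; below the normal diet mean in 6 of 6). The implied read total had a ratio of 1.12 (exact p = 0.563, adjusted p = 0.563, above in 4 of 6). The log2 difference of miR-451-5p and miR-23a-3p, a measure of red cell breakage, was −2.14 ± 0.56 on the normal diet and −1.88 ± 0.64 on fish oil (exact p = 0.450, adjusted p = 0.563, higher in 4 of 6). The 5 most abundant miRNAs of the libraries took 52.6 ± 3.17% and 49.5 ± 4.83% of the counts (exact p = 0.221, adjusted p = 0.368, lower in 4 of 6).

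miR-191a-5p, plentiful in platelets and other blood cells, lies on chromosome 8 at 116698881 to 116698904 (rn5). Its level was 345013, 230470, 176380, 275741, 293574 and 193082 CPM in normal air 1 to 6. In fish oil air 1 to 6 it was 151203, 130904, 80092, 45685, 101950 and 101237 CPM. The lowest normal diet library, normal air 3, was above the highest fish oil library, fish oil air 1. The difference was −1.31 (SE 0.30; edgeR quasi-likelihood test, Benjamini-Hochberg adjusted p = 0.0120; below the normal diet mean in 6 of 6). As a share of all miRNA counts it averaged 23.3 ± 4.39% on the normal diet and 11.05 ± 3.77% on fish oil (SD, n = 6 each).

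miR-425-5p starts on the same chromosome at 116699334, and the 2 mature sequences span 476 bases; in mammals both hairpins lie in an intron of Dalrd3. Its level was 4800, 2630, 3070, 3470, 4801 and 3750 CPM in normal air 1 to 6, and 1942, 2028, 2267, 1689, 1806 and 2566 CPM in fish oil air 1 to 6. The groups were separated narrowly, by fish oil air 6 below normal air 2. The difference was −0.87 (SE 0.24; edgeR, adjusted p = 0.0234, with values lower in 6 of 6). Without fish oil air 4 or 5 it missed the threshold, at an edgeR adjusted p of 0.0503 and 0.0587, and with library size alone it did so at 0.0884. The log2 ratio of miR-191a-5p to miR-425-5p within a library, which no scaling touches, was 6.06 ± 0.29 on the normal diet and 5.54 ± 0.58 on fish oil (SD, n = 6 each; exact permutation p = 0.0844, adjusted over 13 ratios p = 0.332, lower in 5 of 6).

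miR-192-5p, a miRNA of liver, gut and kidney, lies on chromosome 1 with miR-194-5p, both inside 228619901 to 228620116. Its level was 58726, 79407, 94540, 78795, 127055 and 114447 CPM in normal air 1 to 6, and 48681, 49732, 43488, 54075, 40062 and 25756 CPM in fish oil air 1 to 6. Fish oil air 4, the highest of its group, stood just under normal air 1. The difference was −1.08 (SE 0.26; edgeR adjusted p = 0.0120; below the normal diet mean in 6 of 6). miR-194-5p, cut from the same precursor transcript and from a second locus on chromosome 13, had 272 ± 123 and 134 ± 78.97 CPM (SD, n = 6 each), a difference of −1.05 that did not pass (SE 0.50; edgeR, adjusted p = 0.156, with values lower in 6 of 6). The log2 ratio of miR-192-5p to miR-194-5p was 8.45 ± 0.52 and 8.40 ± 0.97 (exact permutation p = 0.898, adjusted p = 0.978, lower in 4 of 6).

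miR-122-5p, the main miRNA of hepatocytes and a regulator of cholesterol and fatty acid metabolism, lies on chromosome 18 at 59956825 to 59956847. Its level was 4489, 29161, 16161, 21548, 62240 and 74004 CPM in normal air 1 to 6, and 11872, 3912, 13822, 13290, 3613 and 3315 CPM in fish oil air 1 to 6. The normal diet rats covered a wide range: normal air 5 and 6 were highest, and normal air 1 lay among the fish oil libraries. The difference was −2.06 (SE 0.61; edgeR adjusted p = 0.0472; below the normal diet mean in 6 of 6). The call rests on single libraries: leaving out any 1 of fish oil air 2, 4, 5 and 6 or of normal air 2, 5 and 6 ended it, at edgeR adjusted p-values of 0.0503 to 0.103, as did leaving normal ozone 6 out of the shared fit (0.0538). It did not pass either when only the 12 compared libraries were fitted (0.0951 in edgeR, adjusted), a fit that called 6 miRNAs, 0 higher and 6 lower. The opposite strand of the hairpin, miR-122-3p, was below the low-count filter and had 24 counts over the normal diet libraries, 15 of them in normal air 6, and 3 over the fish oil libraries. By mean CPM miR-122-5p was number 6 among serum miRNAs on the normal diet and number 22 on fish oil.

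Together these made the liver list, of which 3 members passed the filter. Of them 0 were higher, 2 were lower (5.15% were lower over all miRNAs tested) and 1 did not pass, with a median of −1.08 beside +0.08 over all miRNAs tested; with the implied read total the median was −2.05 beside −0.78. The summed level of the listed miRNAs was 63371 to 189782 CPM on the normal diet and 29182 to 67559 CPM on fish oil, and 0 of its members in the table were at 0 in all air libraries. The log2 ratio of miR-122-5p to miR-192-5p was −1.87 ± 1.12 and −2.63 ± 0.84 (SD, n = 6 each; exact permutation p = 0.208, adjusted p = 0.450, lower in 5 of 6).

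miR-128-3p, best known from neurons and also a repressor of cholesterol export genes, is counted from loci on chromosome 13 (50001755 to 50001776) and chromosome 8 (119718197 to 119718218). Its level was 41450, 37420, 32783, 35429, 40947 and 42008 CPM in normal air 1 to 6, and 21913, 19704, 25432, 7199, 19574 and 22026 CPM in fish oil air 1 to 6. The normal diet values lay close together, and fish oil air 4 stood well below the rest of its group. The difference was −0.99 (SE 0.26; edgeR, adjusted p = 0.0234, with values lower in 6 of 6). It missed the threshold when any 1 of fish oil air 4, 5 and 6 or of normal air 1, 5 and 6 was left out, at edgeR adjusted p-values of 0.0520 to 0.0719, and with library size alone (0.114) or library size without the 5 most abundant miRNAs (0.0574) in place of TMM. In the neural and endocrine list miR-128-3p was the only call among 3 members tested (0 higher, 1 lower, median −0.30), to be read against 5.15% called lower over all miRNAs. Of its 10 members below the filter, the brain miRNAs miR-124-3p, miR-9a-3p and miR-219a-5p were at 0 in all 12 libraries and the other 7 had few reads. Out of group totals of 393828 counts on the normal diet and 223571 on fish oil, miR-9a-5p had 13 and 20, miR-129-5p 9 and 24, miR-212-3p 1 and 6, miR-153-3p 1 and 1, miR-132-3p 24 and 12, miR-138-5p 24 and 9, and miR-7a-5p 48 and 28. miR-9a-5p, miR-129-5p and miR-212-3p had more reads on fish oil despite the lower total, unlike miR-128-3p, and none of the 7 was tested. miR-218a-5p, of motor neurons, was at +0.67 and miR-375-3p, of pancreatic islets and other endocrine cells, at −0.30, and neither passed (edgeR adjusted p = 0.422 and 0.525).

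miR-328a-3p, a platelet miRNA in the lists used here, lies on chromosome 19 at 48128936 to 48128958. Its level was 24408, 17948, 8290, 14742, 16180 and 10775 CPM in normal air 1 to 6, and 8904, 10975, 3251, 4236, 5889 and 6072 CPM in fish oil air 1 to 6. The groups overlapped, since normal air 3 lay below fish oil air 1 and 2. The difference was −1.23 (SE 0.37; edgeR, adjusted p = 0.0472, with values lower in 6 of 6). The call was lost in 8 of the 12 fits that left out 1 air library (fish oil air 3, 4, 5 or 6, or normal air 1, 2, 5 or 6), at edgeR adjusted p-values of 0.0584 to 0.114. Leaving normal ozone 4 or 5 out of the shared fit ended it too (0.0647 and 0.0557 in edgeR, adjusted), as did library size alone (0.0569).

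The platelet list had 13 tested members, of which 0 were higher, 3 were lower (miR-191a-5p, miR-425-5p and miR-328a-3p; 5.15% were lower over all miRNAs) and 10 did not pass. Its median was −0.51 beside +0.08 over all miRNAs, with 4 positive and 9 negative members. miR-92a-3p, also abundant in red cells, had 19035 ± 6227 and 11338 ± 4175 CPM (SD, n = 6 each), a difference of −0.75 that did not pass (edgeR adjusted p = 0.124; lower in 6 of 6). miR-223-3p, made in platelets and myeloid cells, was at −0.73 (edgeR adjusted p = 0.172; lower in 5 of 6). miR-126a-3p, which endothelium makes too, was the platelet member with the highest value, at +1.07 (edgeR adjusted p = 0.149; higher in 6 of 6). The summed level of the list, of which miR-191a-5p is the main part, was 279768 to 511826 CPM on the normal diet and 157573 to 286373 CPM on fish oil; the part of platelets in these differences was not tested.

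miR-181c-5p lies on chromosome 19 at 36267372 to 36267394. Its level was 1380, 1038, 1326, 1426, 1776 and 1039 CPM in normal air 1 to 6, and 1137, 652, 464, 526.1, 792 and 478 CPM in fish oil air 1 to 6. Fish oil air 1 was the one fish oil library inside the normal diet range. The difference was −0.98 (SE 0.28; edgeR adjusted p = 0.0337; below the normal diet mean in 6 of 6), and it missed the threshold without fish oil air 4, 5 or 6 and without normal air 5 (edgeR adjusted p 0.0520 to 0.0865) and with library size alone (0.0569).

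The other members of its seed family, ACAUUCA, did not pass, and they had different signs. miR-181d-5p, which lies beside miR-181c-5p on chromosome 19, was at −0.42 (edgeR adjusted p = 0.217). miR-181a-5p and miR-181b-5p, which regulate T cell signalling and are made from clusters on chromosomes 3 and 13, were at +0.63 and +0.62 (edgeR adjusted p = 0.102 for both; higher in 5 of 6 for both), and at −0.27 and −0.21 with the implied read total. Summed over the family, the level was 12940 ± 1428 CPM on the normal diet and 14157 ± 3561 CPM on fish oil (SD, n = 6 each), a difference of +0.13 (SE 0.18; edgeR adjusted p = 0.643). The opposite arm of the miR-181c hairpin, miR-181c-3p, has another seed and was at −0.51 (edgeR adjusted p = 0.176).

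Within a library the log2 ratio of miR-181a-5p to miR-181c-5p ran from 1.49 to 2.17 on the normal diet and from 2.24 to 4.15 on fish oil, with no overlap. That ratio was chosen after its values were seen and has no test. The planned ratio of miR-181c-5p to miR-181d-5p, 2 neighbours in 1 cluster, was −1.86 ± 0.37 and −2.40 ± 0.32 (SD, n = 6 each; exact permutation p = 0.0281, adjusted p = 0.183, lower in 6 of 6).

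miR-217-5p, which acinar cells of the pancreas make together with miR-216a and miR-216b, lies on chromosome 14 at 112809693 to 112809715. Its raw counts were 1, 0, 3, 3, 1 and 4 in normal air 1 to 6, and 0, 11, 10, 10, 49 and 91 in fish oil air 1 to 6. All normal diet libraries were near the floor of 3 counts; 5 fish oil libraries stood above them, most of all fish oil air 5 and 6, and fish oil air 1 had 0. The difference was +4.13 (SE 0.95; edgeR, adjusted p = 0.0120, with values higher in 5 of 6), from 35.7 ± 28.8 to 602 ± 585 CPM (SD, n = 6 each). Over the group sums, 12 counts of 393828 against 171 of 223571, the rate ratio was 25.1 with an exact 95% interval of 14.003 to 49.5 that covers counting error only. The filter's 220 CPM was reached by miR-217-5p in 0 normal air, 5 fish oil air, 1 normal ozone and 4 fish oil ozone libraries. It was therefore tested because it was high on fish oil, and its p-value is given as a description of these libraries. Without the filter it was at +4.04 (edgeR adjusted p = 0.0410 over 440 names), and the fit on the 12 compared libraries alone left it out.

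miR-216a-5p, from a hairpin upstream of miR-217 on chromosome 14 (112802280 to 112802302), was too rare for the test. It had 0, 0, 0, 1, 0 and 2 counts in normal air 1 to 6, and 0, 6, 0, 4, 3 and 10 in fish oil air 1 to 6. Fish oil air 6 had the most reads of both miRNAs, and fish oil air 1 had 0 of both. The sums of 3 and 23 counts give a rate ratio of 13.5, with an exact 95% counting interval of 4.08 to 70.3. miR-216a-3p had 5 counts and miR-216b-5p had 2, all of them in fish oil air 6, against 0 on the normal diet.

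Other miRNAs made in the pancreas did not pass. miR-148a-3p, abundant in acinar cells but also in liver and other tissues, was at −0.15 (edgeR adjusted p = 0.710), and so the exocrine pancreas list, with 2 tested members, had 1 higher and 1 not passed. No support is drawn from that count, since miR-217-5p entered it through fish oil libraries. The endocrine miR-375-3p had 1251 ± 358 CPM on the normal diet and 1005 ± 415 CPM on fish oil (SD, n = 6 each), a difference of −0.30 that did not pass, as given above. After ozone, miR-217-5p had 0, 0, 4, 4, 31 and 7 counts on the normal diet and 33, 18, 28, 11 and 3 on fish oil, so that the groups overlapped.

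The next 15 miRNAs by p-value did not pass, and 12 of them were higher on fish oil with TMM scaling. Among these 12, miR-144-5p, miR-205, miR-10b-5p and miR-342-3p reached the low-count filter in fewer than 5 normal diet libraries. The count of higher members is therefore a description only. miR-144-5p, made in maturing red cells, was at +1.18 (SE 0.38; edgeR, adjusted p = 0.0533, with values higher in 6 of 6). miR-205, of squamous and glandular epithelium, was at +1.33 (SE 0.43; edgeR, adjusted p = 0.0533, with values higher in 6 of 6). Both reached the low-count filter in 0 normal air and 5 fish oil air libraries and came from few reads, 140 ± 48.0 and 154 ± 67.1 CPM on the normal diet against 326 ± 125 and 386 ± 222 on fish oil (SD, n = 6 each). In normal air 1 to 6 miR-205 had 77.7, 196, 97.7, 108, 234 and 211 CPM, and in fish oil air 1 to 6 it had 250, 217, 246, 305, 520 and 781. Fish oil air 2 was the one fish oil library inside the normal diet range, and fish oil air 6, high for miR-217-5p too, was the highest.

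miR-199a-3p, of fibroblasts and smooth muscle, had 3381, 5825, 4954, 8313, 3669 and 3947 CPM in normal air 1 to 6. In fish oil air 1 to 6 it had 12177, 4817, 7020, 13373, 10442 and 7969 CPM. Normal air 4 was high for its group and fish oil air 2 low. The difference was +0.89 (SE 0.29; edgeR, adjusted p = 0.0533, with values higher in 5 of 6). It passed without fish oil air 2 or 3 or without normal air 4 (edgeR adjusted p 0.0322 to 0.0430).

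miR-143-3p, of smooth muscle and other mesenchymal cells, had 128180, 119918, 95726, 269123, 117375 and 86055 CPM in normal air 1 to 6. In fish oil air 1 to 6 it had 366565, 129600, 110058, 381015, 284842 and 205376 CPM. Normal air 4 again lay among the fish oil libraries, and fish oil air 2 and 3 among the normal diet libraries. The difference was +0.86 (SE 0.32; edgeR, adjusted p = 0.102, with values higher in 4 of 6), and it was past the threshold without normal air 4 (edgeR adjusted p = 0.0278) or without fish oil air 3 (0.0430). Its neighbour miR-145-5p was at +1.03 (edgeR adjusted p = 0.156; higher in 3 of 6), and their log2 ratio was 8.91 ± 0.81 and 8.85 ± 0.90 (SD, n = 6 each; exact permutation p = 0.913, adjusted p = 0.978, lower in 3 of 6).

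The remaining 11 of these 15 are given by value alone. miR-101a-3p was at +0.86, miR-152-3p at +0.86, miR-10b-5p at +1.23, miR-30e-5p at +0.58, miR-23b-3p at +0.81 and miR-342-3p at +1.15, beside miR-181a-5p and miR-181b-5p above. miR-26a-5p was at −0.50, let-7d-3p at −0.66 and miR-24-2-5p at −0.76. Their edgeR adjusted p-values lay between 0.0896 and 0.120. With the implied read total miR-101a-3p, miR-30e-5p and miR-23b-3p turned to −0.02, −0.38 and −0.28.

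**Figure D3:**
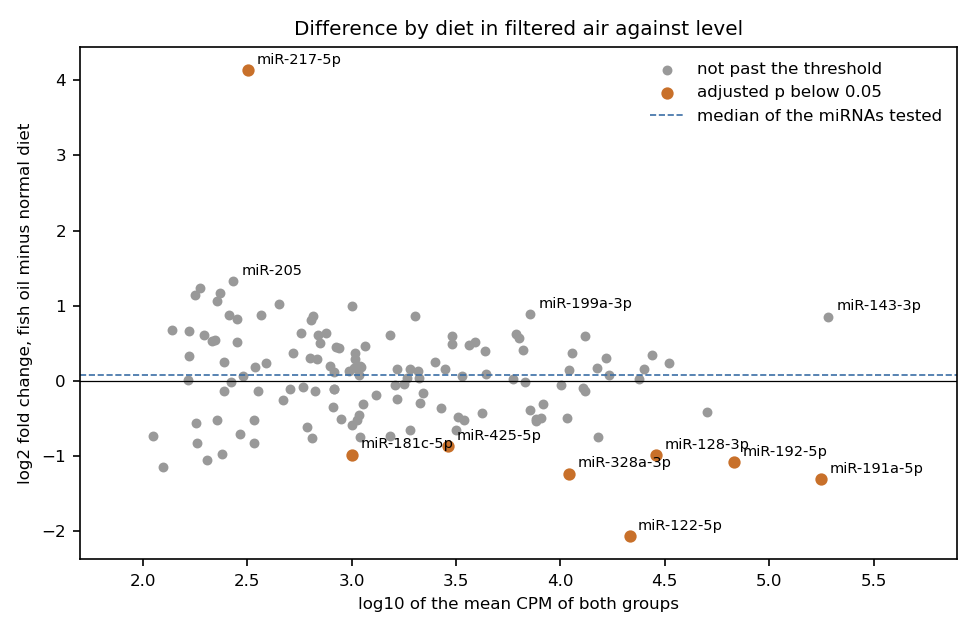
Log2 fold change of each of the 136 miRNAs against the log10 of its mean CPM over both groups. The 8 miRNAs past the threshold are coloured; miR-143-3p, the most abundant, and miR-199a-3p lie above 0 without passing.

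Each normal diet library was led by miR-191a-5p, with 18.4 to 31.1% of its counts. In 5 of the 6 fish oil libraries miR-143-3p led instead, and fish oil air 2 was led by miR-191a-5p with 15.5%. miR-143-3p took 8.22 to 22.05% of the counts on the normal diet and 15.4 to 35.7% on fish oil. The log2 ratio of miR-143-3p to miR-191a-5p ran from −1.43 to −0.04 and from −0.01 to 3.06, without overlap and by a gap between normal air 4 and fish oil air 2 that is small beside either range. The ratio of miR-199a-3p to miR-191a-5p ran from −6.67 to −5.05 and from −4.76 to −1.77. Both ratios were picked after their values were seen, so they have no test.

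The other miRNAs among the 10 with the most counts kept closer levels. miR-22-3p took 5.35 ± 1.61% and 4.63 ± 0.43% of the counts, miR-21-5p 2.92 ± 0.87% and 3.94 ± 0.99%, and miR-30a-5p 2.24 ± 0.58% and 3.26 ± 0.35% (SD, n = 6 each). miR-10a-5p took 2.20 ± 1.16% and 2.78 ± 0.70%, and miR-25-3p 2.21 ± 0.48% and 2.62 ± 0.57%. Their edgeR differences were −0.42, +0.23, +0.34, +0.16 and +0.02 in that order, and 0 of these 5 passed (edgeR adjusted p 0.209 to 0.938). The shares of miR-192-5p and miR-128-3p were 8.67 ± 2.49% and 3.59 ± 0.39% on the normal diet and 4.73 ± 1.24% and 2.18 ± 0.98% on fish oil.

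The list of smooth muscle, fibroblast and vessel wall miRNAs had 13 tested members, of which 0 were called in either direction. With TMM scaling all 13 were positive, 9 of them at an unadjusted p below the threshold, and the median was +0.86 beside +0.08 over all miRNAs; with the implied read total 5 were positive and 8 negative, with a median of −0.08 beside −0.78. miR-199a-3p, miR-152-3p and miR-10b-5p had the smallest p-values. The endothelial pair miR-126a-3p and miR-126a-5p, arms of 1 hairpin on chromosome 3, were at +1.07 and +0.60 (edgeR adjusted p = 0.149 and 0.156). Of the 13, miR-10b-5p, miR-126a-3p and miR-222-3p reached the low-count filter in fewer than 5 normal diet libraries, so the count of positive members is a description only. The summed level was 113263 to 340869 CPM on the normal diet and 161358 to 465768 CPM on fish oil, mostly miR-143-3p, and the ranges overlap.

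**Figure D4:**
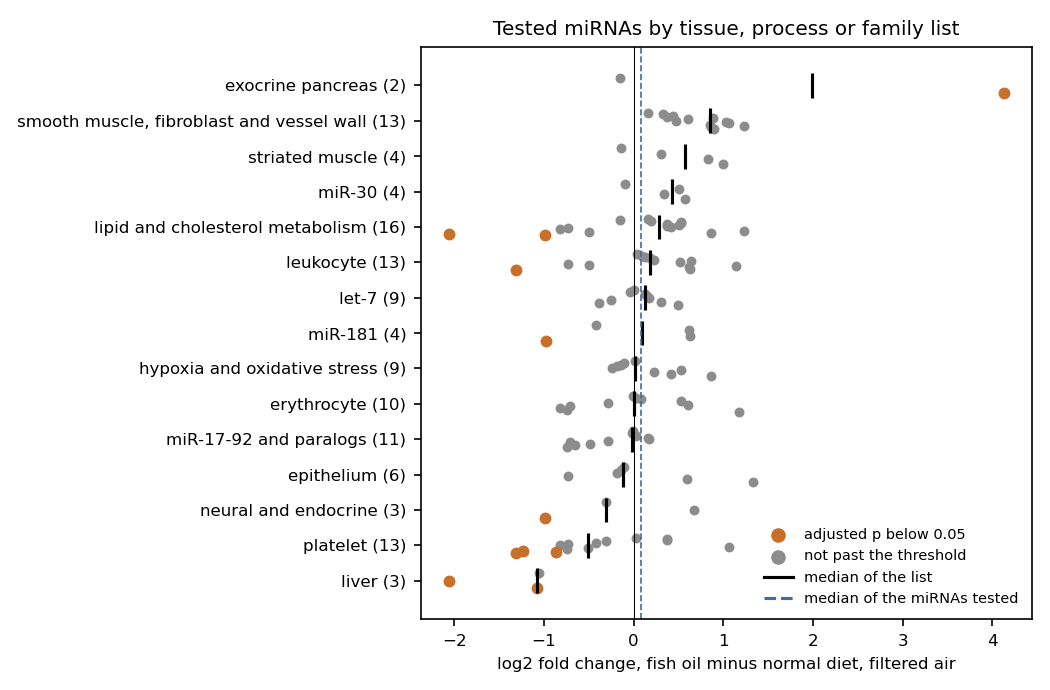
Log2 fold change of each tested miRNA in the lists for tissues, processes and families, with the number tested in parentheses, a bar at the list median and a dashed line at the median of the 136. Liver (−1.08) and platelet (−0.51) miRNAs have the lowest list medians, and the 13 smooth muscle, fibroblast and vessel wall miRNAs are all above 0 with TMM scaling.

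Of the red cell list 0 of 10 tested members were called, 5 were positive and 5 negative, and the median was +0.01. miR-144-5p, miR-92a-3p and miR-185-5p (−0.82) had its smallest p-values, and miR-451-5p, the main miRNA of red cells, was at +0.61 (edgeR adjusted p = 0.401). The leukocyte list had 13 tested members with 0 higher, 1 lower (miR-191a-5p, also in the platelet list) and 12 not passed. Over all miRNAs 5.15% were lower. In the leukocyte list 10 members were positive and the median was +0.18. miR-181a-5p and miR-181b-5p followed miR-191a-5p by p-value. Striated muscle had 0 of 4 called and a median of +0.57, led by miR-1b (+0.996), miR-133a-3p (+0.83) and miR-1-3p (+0.31). Epithelium had 0 of 6 called and a median of −0.12, with miR-205, miR-203a-3p (+0.59) and miR-429 (−0.73) first by p-value.

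The list of miRNAs that act on lipid and cholesterol metabolism had 16 tested members, of which 0 were higher, 2 were lower (miR-128-3p and miR-122-5p; 5.15% were lower over all miRNAs) and 14 did not pass. Its median was +0.28 beside +0.08 over all miRNAs, with 10 positive and 6 negative; miR-152-3p came next by p-value. The hypoxia and oxidative stress list had 0 of 9 called and a median of +0.02, with miR-101a-3p first and miR-27b-3p (+0.41) and miR-21-5p next. miR-210-3p, the miRNA most closely tied to hypoxia, was at −0.11, and its value is uncertain because miR-3574 has identical counts.

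Family lists passed in 0 of 9 let-7 members (median +0.13), 0 of 4 miR-30 members (+0.42) and 0 of 11 members of miR-17-92 and its paralogs (−0.02). let-7f-5p (+0.50), let-7g-5p (−0.39) and let-7i-5p (+0.30) had the smallest p-values of let-7. miR-30e-5p, miR-30a-5p and miR-30c-5p (+0.51) were those of miR-30, and miR-92a-3p, miR-92b-3p (−0.65) and miR-17-5p (−0.48) those of miR-17-92. The miR-181 list had 1 of 4 lower, beside 5.15% lower over all miRNAs, and a median of +0.10. These list medians are with TMM scaling; with the implied read total the median was negative for every list but exocrine pancreas, as it was for all 136 miRNAs.

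The Dlk1-Dio3 locus, an imprinted region that encodes a large miRNA cluster, had 27 listed names, 0 of which reached the low-count filter. Summed over the locus, normal air 1 to 6 had 17, 16, 14, 8, 7 and 12 counts, and fish oil air 1 to 6 had 8, 18, 19, 21, 43 and 35. In CPM that is 137 to 330 on the normal diet and 222 to 1064 on fish oil, where fish oil air 1 was lowest and fish oil air 5 highest. The groups overlap through fish oil air 1, and these sums were not tested.

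miRNAs were also counted by seed, with all names that have the same bases 2 to 8 summed. Of 90 seed families tested 8 changed (8.89%), 3 higher and 5 lower. In each of the 8 only 1 member had any count in the air libraries. These families therefore hold the air counts of single miRNAs that were also tested one by one. The lower ones were the seeds of miR-191a-5p, miR-192-5p, miR-128-3p, miR-425-5p and miR-122-5p, and the higher ones those of miR-217-5p, miR-144-5p and miR-205. Each of these 3 higher seeds reached the filter in 0 normal air and 5 fish oil air libraries, so being tested depended on the fish oil libraries and no support is drawn from their number. GAUAUCA, the seed of miR-144-5p, was at +1.19, and CCUUCAU, that of miR-205, at +1.35 (edgeR adjusted p = 0.0326 for both families; 0.601 and 0.426 with the implied read total, at +0.39 and +0.59). These miRNAs did not pass one by one, where 136 features were tested instead of 90.

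The uncalled families with the smallest p-values were those of miR-199a-3p (+0.86), miR-10b-5p (+1.195), miR-24-2-5p (−0.79), miR-143-3p (+0.81) and miR-342-3p (+1.10), with edgeR adjusted p-values from 0.0559 to 0.147. In 21 families 2 or more members were tested, 58 miRNAs in all, and 0 of these families were called. All members had 1 sign in 10 of them and both signs in 11. Among the latter, miR-101a-3p was at +0.86 and miR-101b-3p at −0.24, and miR-152-3p at +0.86 and miR-148a-3p at −0.15.

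Tested miRNAs that lie within 10000 bases of each other on rn5 formed 33 clusters. All members had 1 sign in 23 clusters and both signs in 10. These clusters are not independent. A miRNA with several loci has its summed value in each of its clusters. The pair miR-181a-5p and miR-181b-5p therefore counts on chromosome 3 and again on chromosome 13. For miR-210-3p and miR-3574 the agreement is built in, since every library gives both names the same reads. The names let-7a-5p and miR-3596a lie at the same position on chromosome 8. The numbers of clusters by sign are a description only. On chromosome 10 miR-144-5p, miR-144-3p and miR-451-5p were at +1.18, +0.53 and +0.61. On chromosome 15 the miR-17-92 cluster held miR-92a-3p at −0.75 beside miR-19a-3p at +0.16. On chromosome 12 miR-25-3p, miR-93-5p, miR-106b-3p and miR-106b-5p lay between −0.01 and +0.17.

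Ratios between neighbours or arms of 1 hairpin were computed for 13 pairs, and 0 passed after adjustment over them. At an unadjusted p below the threshold there were 2, miR-181c-5p to miR-181d-5p above and the arms of miR-30e. The log2 ratio of miR-30e-5p to miR-30e-3p was 1.63 ± 0.45 on the normal diet and 2.28 ± 0.40 on fish oil (SD, n = 6 each; exact permutation p = 0.0281, adjusted p = 0.183, higher in 6 of 6). The steadiest was miR-25-3p to miR-93-5p, at 2.00 ± 0.13 in both groups (exact permutation p = 0.978, adjusted p = 0.978).

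The other pairs did not pass, with exact permutation adjusted p-values of 0.332 to 0.689. miR-126a-3p to miR-126a-5p was +0.83 higher on fish oil, let-7d-5p to let-7d-3p +0.62, miR-221-3p to miR-222-3p +0.67, miR-17-5p to miR-92a-3p +0.27, miR-144-3p to miR-451-5p +0.27 and miR-23a-3p to miR-27a-3p +0.14.

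Of the 53 miRNAs with a mean of 100 or more counts in the air libraries, 40 had a larger SD of log2 CPM on fish oil, and the median SD was 0.326 on the normal diet and 0.476 on fish oil. These miRNAs come from the same libraries, so 1 library can raise many of the SDs. Fish oil air 3 was lowest of its group for miR-320-3p, at 1257 CPM with 8556 CPM next. For miR-19b-3p it was highest, at 12128 CPM with 6483 CPM next. The part of single libraries in the larger SDs was not tested. Over the tested miRNAs with a sequence, the mean GC content weighted by counts was 46.7 to 48.2% on the normal diet and 45.3 to 46.6% on fish oil, without overlap. Abundant miRNAs weigh most in this mean. miR-191a-5p, whose mean share was lower on fish oil, has 52.2% GC, and miR-143-3p, whose mean share was higher, has 45.5%. The separation is therefore not independent of the values given above. Across miRNAs, which are not independent and come from the same libraries, Spearman's rho of the difference with GC content was −0.21 and with level −0.30, given as a description. The part of GC content and of depth in the differences was not tested.

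After ozone, in other rats, the same diets differed in 31 miRNAs (22.8%), 17 higher and 14 lower in edgeR. Of the 8 miRNAs that changed in air, 7 had the same direction after ozone and 4 were called there as well: miR-191a-5p (−1.77), miR-328a-3p (−1.63), miR-128-3p (−1.37) and miR-181c-5p (−1.04). Of all 136 miRNAs, 104 (76.5%) had the same sign under both exposures, and so did each of the next 15 by p-value in air. The low-count filter used libraries of both exposures. Among these miRNAs, miR-217-5p, miR-144-5p, miR-205, miR-10b-5p and miR-342-3p reached it in fewer than 5 normal diet libraries. The counts of equal signs are therefore a description only. miR-199a-3p, miR-144-5p, miR-143-3p, miR-152-3p and miR-10b-5p, positive but not past the threshold in air, were called higher after ozone. Of these, miR-144-5p reached the low-count filter in 0 normal air and 1 normal ozone library, and miR-10b-5p in 0 of both groups. Both were tested through fish oil libraries, so their calls are a description only. The count after ozone rests partly on fish oil ozone 3, without which 12 miRNAs were called, 4 higher and 8 lower. miR-181c-5p, miR-144-5p and miR-10b-5p were then not among them (edgeR adjusted p = 0.0517, 0.0685 and 0.0940), and miR-10b-5p was not called without normal ozone 4 either (0.0631). Leaving out ozone libraries was tried after seeing the data.

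The 2 liver miRNAs that fell in air did not pass after ozone. miR-192-5p was at −1.08 in air and −0.15 after ozone (edgeR adjusted p = 0.725 after ozone), and miR-122-5p at −2.06 and +0.01 (0.984). The interaction tests whether the diet difference itself depends on exposure; in edgeR it had an unadjusted p of 0.0196 for miR-192-5p and 0.0234 for miR-122-5p. In edgeR 0 of 136 miRNAs passed it after adjustment, with 6 at an unadjusted p below the threshold and 0.468 as the smallest adjusted p. For miR-217-5p the differences were +4.13 and +2.15 (edgeR interaction, unadjusted p = 0.135).

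**Figure D5:**
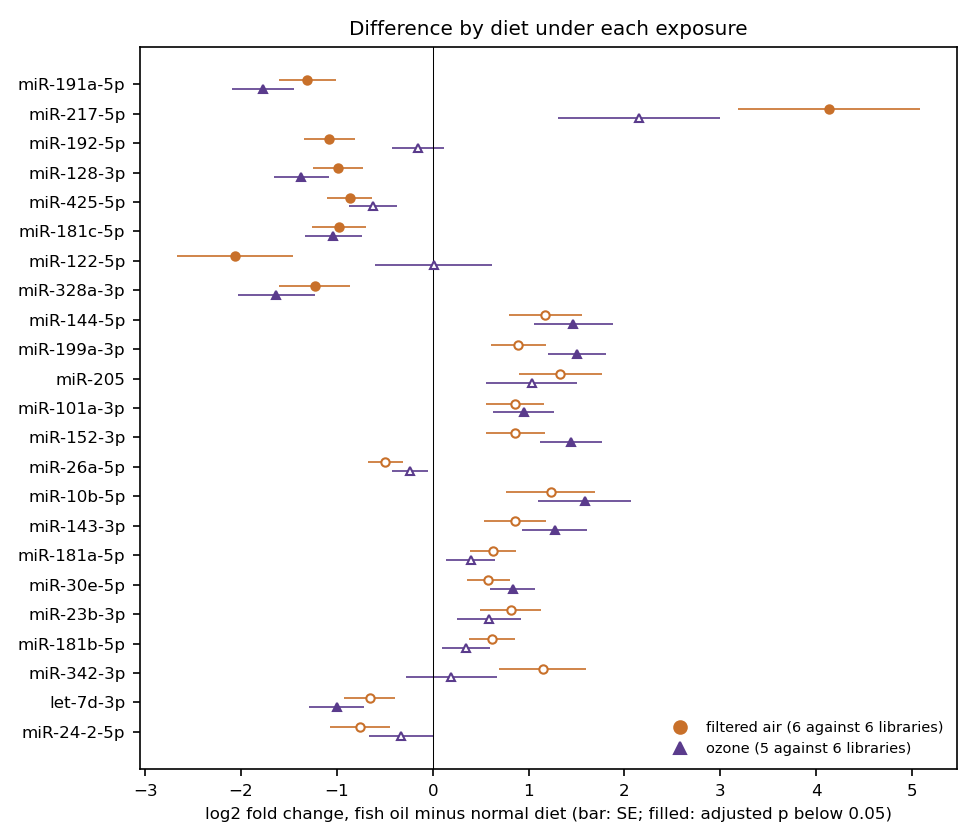
Log2 fold change of fish oil minus normal diet with its SE for the 8 miRNAs past the threshold in air and the next 15 by p-value, in filtered air (circles) and after ozone (triangles); filled symbols have an adjusted p below 0.05 in that exposure. The symbols of a miRNA lie on the same side of 0 except for miR-122-5p, at −2.06 in air and +0.01 after ozone.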

How the data were processed

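Per the labels, small RNA from serum was prepared with a biofluids column kit and a DNase step, 10 ng entered the library kit, and reads were 50 cycles from 1 end. The tools named were Bowtie 1.0.0, Partek and bcl2fastq, and the build rn5, per the submitters' processing notes. How reads matching several loci were treated, and the annotation and filters, are not stated there. The authors deposited expected counts per mature miRNA locus (832 loci, fractions in 50) and a table of RPM. The RPM values equal counts divided by 1 total per library plus 0.0001, to within 0.0280 reads, which gave the implied read totals. Positions are as the tables give them: end minus start equals the RefSeq length for all 757 loci with a sequence, and the tables do not say whether starts count from 0 or 1.

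Loci of 1 name were summed and rounded (753 names). The 136 names that passed filterByExpr (minimum count 10, minimum total 15, by group) held 99.3% of counts. They were scaled by TMM and tested with edgeR 4.0.16 (quasi-likelihood, robust, two-sided) in R 4.3.3, in 1 fit of 23 libraries with 1 mean per group; the script was tested on simulated data. Library measures and ratios (0.5 added to each count) had exact permutation tests in scipy 1.17.1. Alternatives were DESeq2 1.42.0, limma 3.58.1 on log2(RPM + 1) or log2(RPM + 10), voom, other library sizes and filters, and leaving out each library.

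Named were all miRNAs past the threshold, the next 15 by p-value, the 10 most abundant, the 3 smallest p-values of each list, the ratio pairs, the called seed families and the next 5, and miRNAs whose groups do not overlap. The members and lists were chosen with earlier results of these data known. let-7a-5p has 1 locus in common with miR-3596a on the opposite strand, so those counts cannot be told apart.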

Additional observations from a re-analysis of the deposited data

Results flagged for a closer look

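In 56 groups of 6 libraries, 2 held a library far from the others, by a gap to the nearest library of more than 0.625 of the group's range. Chance alone marks about 1 in 20 such groups. For miR-128-3p, fish oil air 4 had 7199 CPM, the nearest other fish oil library had 19574 CPM, and the gap was 0.679 of the range. Without that library miR-128-3p was at −0.82 and missed the threshold (edgeR quasi-likelihood adjusted p = 0.0719). For miR-143-3p, normal air 4 had 269123 CPM, the nearest other normal diet library had 128180 CPM, and the gap was 0.770 of the range. Without it miR-143-3p was at +1.12 and passed (edgeR adjusted p = 0.0278).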

How the results depend on the processing

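The count of 8 changed miRNAs depends on scaling and on single libraries. It was 15 with DESeq2 (7 higher, 8 lower), 38 with the implied read total, 14 with library size alone (11 higher, 3 lower; 4 of the 8 kept, without miR-328a-3p, miR-181c-5p, miR-128-3p and miR-425-5p), 15 with library size without the 5 most abundant miRNAs (9 higher, 6 lower), 30 and 28 with limma on log2(RPM + 1) and log2(RPM + 10), all lower, and 3 to 15 when 1 library was left out. The lowest count was without fish oil air 4 or 5 and the highest without fish oil air 3; leaving out fish oil air 6 or normal air 5 gave 4, leaving out normal air 6 gave 5, and leaving fish oil ozone 3 out of the shared fit, tried after seeing the data, gave 12. Seed families called were 27 with the implied read total (1 higher, 26 lower), 5 with only the compared libraries, and 3 to 8 when 1 library was left out, lowest without fish oil air 5. The cause of these shifts was not tested.

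Leaving out 1 library ended neither the call of miR-192-5p nor that of miR-191a-5p in any of the 12 fits. miR-217-5p also passed in each of these fits, but it entered the test through fish oil libraries, so its repeated calls are a description only. The fit on the compared libraries alone left miR-217-5p out. With limma on log2(RPM + 1) or log2(RPM + 10) miR-217-5p did not pass (adjusted p = 0.0548 and 0.147). With only the compared libraries 6 were called, 0 higher and 6 lower. Without the low-count filter 12 were called; miR-143-3p (+0.73), miR-216a-5p (+3.10), miR-31a-5p (−2.21), miR-369-3p (+4.15) and miR-92a-3p (−0.86) joined and miR-122-5p was lost. Of 547 values of the 23 miRNAs named by p-value, 534 kept their direction. With the implied read total miR-101a-3p (−0.024), miR-181a-5p (−0.27), miR-30e-5p (−0.38), miR-23b-3p (−0.28) and miR-181b-5p (−0.21) turned negative. With log2(RPM + 1) miR-152-3p (−0.0089), miR-181a-5p (−0.29), miR-30e-5p (−0.22) and miR-181b-5p (−0.18) did, and with log2(RPM + 10) miR-181a-5p (−0.24), miR-30e-5p (−0.20), miR-23b-3p (−0.046) and miR-181b-5p (−0.11).

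The ratio of miRNA totals stayed between 0.514 and 0.608 and that of shares between 0.457 and 0.560 when 1 library was left out. The diet groups hold different rats and the labels name no pairs, so no paired analysis was made. Depth limits rare miRNAs: a miRNA under 33.9 to 129 CPM before TMM scaling cannot be told from 0 in a single library.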

Other observations

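miR-31a-5p, an epithelial miRNA below the low-count filter, had 4, 14, 6, 5, 9 and 47 counts in normal air 1 to 6 and 2, 2, 0, 2, 2 and 3 in fish oil air 1 to 6. Every fish oil library had fewer counts than the lowest normal diet library, but fish oil libraries are shallower. All fish oil values were at or below the floor of 3 counts. As shares of the miRNA total the groups overlap: fish oil air 2 had 2 of 23276 counts, normal air 1 had 4 of 57025. After ozone it had 59 counts over 6 normal diet libraries and 18 over 5 fish oil libraries. miR-369-3p, of the Dlk1-Dio3 locus, had 0 counts over the normal diet air libraries and 10 over the fish oil air libraries, at most 3 in 1 library. Both were chosen after their values were seen.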
